A study of Mus musculus with 20 samples.

Results

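The regions described here are sites on the mouse genome where induced Sox2 and its mutant Sox2KE both had a peak in embryonic stem (ES) cells while Sox17 and its mutant Sox17EK had none. Chromatin immunoprecipitation and sequencing (ChIP-seq) of 8 Sox libraries of ES cells, 2 for each protein, gave the peak lists. The 5836 strongest peaks of each list were merged into 23799 sites, by chaining peak midpoints that lay within 200 bp of each other. A site was kept where a midpoint of the whole list lay within 200 bp in both Sox2 and both Sox2KE libraries and in no Sox17EK or Sox17 library. This rule kept 1814 sites, 7.62% of all ES Sox sites. They are called Sox2-form sites below, and all positions are in build mm9.

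KH2 cells, an ES line made for doxycycline-inducible transgenes, received doxycycline at 1 µg/ml to express V5-tagged Sox2, Sox2KE, Sox17EK or Sox17. Every ES group used here is such an overexpressing line, with 1 line per protein, and remains undifferentiated per the labels. The Sox2, Sox2KE and Sox17EK libraries name the V5 antibody alone and the Sox17 libraries name the Sox17 and V5 antibodies. Oct4 was mapped in 2 libraries each (A and B) of the Sox2, Sox2KE and Sox17EK lines and 1 (A) of the Sox17 line, in libraries that name the Oct4 and V5 antibodies. F9 embryonal carcinoma cells, with no transgene named, gave 1 Oct4 library untreated and 1 Oct4 and 1 Sox17 library after 1 µM retinoic acid (F9+RA), a treatment that differentiates them towards primitive endoderm. The labels do not say whether libraries A and B came from separate cultures.

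Sox proteins bind DNA through an HMG box and usually act with a partner. Sox2 pairs with the POU protein Oct4 (Pou5f1) on a composite motif, a Sox element beside an octamer element, that is found in many enhancers of pluripotent cells. Sox17, a regulator of primitive endoderm, pairs with Oct4 on a compressed form of that composite. A residue in the HMG box, lysine in Sox2 and glutamate in Sox17, takes part in this choice of partner site, and the KE and EK mutants exchange it. Sox2KE keeps the body of Sox2 and carries the glutamate of Sox17, so the rule used here groups the proteins by their body and not by this residue.

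The 18 lists held 5836 to 84196 peaks, and read depth was unknown. The number attached to each peak, called its score, is the authors' own, lies at 50 or just above at the bottom of every list and was used only to rank peaks within a list. The Sox17 lists were the shortest, with 10301 peaks (A) and 5836 peaks (B), against 23924 to 71693 for the other ES Sox lists. A short list leaves fewer sites with a Sox17 peak, and its part in the number of Sox2-form sites cannot be told apart from lack of binding. With both Sox17 libraries left out of the rule, 2007 sites were kept. With midpoints within 100 bp the rule kept 1185 sites, where only the strongest Sox peaks counted as bound 508, and from the 1000 strongest peaks of each list 295.

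All 4 Sox2 and Sox2KE libraries held a peak at 5550 sites, and the Sox2-form sites were 32.7% of these. A Sox17EK peak without a Sox17 peak lay at 1601 of the 5550 sites, a Sox17 peak without a Sox17EK peak at 259, and peaks of both at 1876. Most Sox2-form sites were far from any peak of a Sox17 form. The nearest Sox17EK or Sox17 midpoint lay more than 1000 bp away at 1626 sites (89.6%), and its median distance was 10915 bp. Near the threshold, 75 kept sites had that midpoint between 200 and 300 bp away, the closest at 200.5 bp, and 311 sites were left out for a midpoint between 100 and 200 bp, the farthest at 199.5 bp. At 117 Sox2-form sites (6.45%) the interval of a Sox17EK or Sox17 peak came within 200 bp although its midpoint did not.

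The Sox peaks at these sites, which chose them and are given as a description, covered a wide range of strength. Scores reached from 50.2 to 1602 in Sox2 library A (median 217) and from 50.1 to 1170 in library B (median 166). In Sox2KE they reached from 50.4 to 2346 in library A (median 303) and from 53.6 to 3201 in library B (median 628). The sizes of scores were not compared between these lists, since their lengths differed from 23924 to 71693 peaks. Raw ranks were averaged over the 4 lists to order the named sites below, with no correction for list length. Over the same number of strongest peaks in each list, 5836, the sites with such a peak were 50.1% and 47.7% for Sox2 and 71.7% and 47.7% for Sox2KE, so library A of Sox2KE stood above the other 3. Peaks among the 5836 strongest of both proteins were found at 767 sites (42.3%), of Sox2KE only at 606 and of Sox2 only at 441. Median peak widths of 667 and 678 bp for Sox2 and of 763 and 934 bp for Sox2KE were close to those of the same libraries at other sites (644, 696, 721 and 1035 bp).

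The order of the sites by score was less alike between the proteins than between libraries of 1 protein. Spearman's rho of the scores across the 1814 sites was 0.56 between the Sox2 libraries and 0.77 between the Sox2KE libraries, but 0.10 to 0.17 over the 4 pairs of a Sox2 with a Sox2KE library. At the 658 sites held by all 8 Sox libraries, the same pairs gave 0.42 to 0.58. The rule used these scores: every Sox2-form site had to hold one of the strongest peaks in at least 1 of the 4 lists, which by itself can lower the correlation between the proteins. Sites of a correlation share the libraries and the line, so these values are a description of the chosen sites, with no test.

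Oct4 was found at most Sox2-form sites in the lines that expressed a Sox2 form and at few of them in the lines of a Sox17 form. In the Sox2 line, 86.1% of the sites had an Oct4 peak in library A (exact 95% interval 84.4 to 87.6) and 56.7% in library B (54.4 to 59.0). In the Sox2KE line the shares were 88.5% in library A (86.9 to 89.9) and 75.0% in library B (72.9 to 77.0). The 4 libraries of these lines lay above every library of the other lines. The Sox17EK line had Oct4 at 30.2% of the sites in library A (28.1 to 32.4) and 18.1% in library B (16.4 to 20.0), and the Sox17 line at 14.4% (12.9 to 16.1). Intervals here are Clopper-Pearson and cover counting error only.

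Over all ES Sox sites the same 7 libraries lay close together. An Oct4 peak lay at 57.7% and 50.4% of all sites in the Sox2 line, at 55.9% and 46.8% in the Sox2KE line, at 50.5% and 48.5% for Sox17EK and at 48.2% for Sox17. The Sox2-form sites were above this background in the 4 libraries of Sox2 forms and below it in the 3 libraries of Sox17 forms. Moving the sites by 10 kb left 0.772% to 2.29% with an Oct4 peak in these 7 libraries, so the low shares in the lines of Sox17 forms were still above the shares at the moved sites. The means were 76.6% ± 14.5 (SD, n = 4) and 20.9% ± 8.25 (SD, n = 3), a difference of 55.6 percentage points, against 3.64 points over all sites. That difference exceeds the SD of either group. Each group joins libraries of different lines, so its SD is not a spread over replicates of 1 condition. The mean of the Sox17-form lines depended on the settings. It was 36.2% where only the strongest Sox peaks counted as bound, with a difference of 51.2 points. It was 12.2% with the ES Oct4 lists shortened to equal length, with a difference of 57.9 points. The Sox lists and the sites were left unchanged in that second setting.

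**Figure D1:**
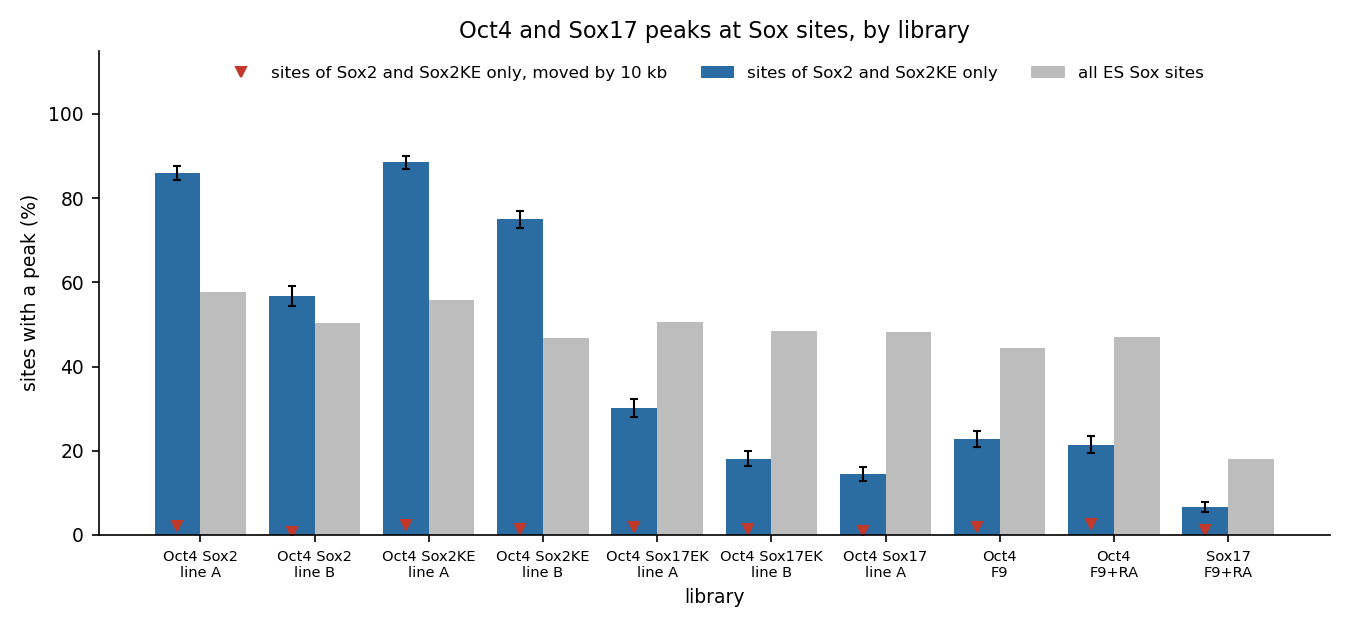
Share of sites (%, y axis) with a peak in each of 7 Oct4 libraries of ES lines and 3 libraries of F9 cells (x axis). Blue bars are the 1814 Sox2-form sites with exact 95% intervals, grey bars all 23799 ES Sox sites, and red triangles the Sox2-form sites moved by 10 kb; the blue bars stand above the grey ones in the 4 libraries of Sox2 and Sox2KE lines and below them in the other 6.

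Several measured facts stand beside this contrast. The sites were chosen by Sox peaks of the same lines, and V5 is named as the other antibody of these Oct4 libraries, so peaks of the tagged Sox protein in those lists cannot be told apart from peaks of Oct4. Without Sox17EK library A in the rule, 2437 sites were kept and the mean of the Sox17-form lines rose to 33.1%. At the 1697 sites without a Sox17EK or Sox17 interval the means were 76.9% and 19.5%. Reading Oct4 peaks by interval instead of midpoint gave 82.6% ± 16.2 (SD, n = 4) and 25.2% ± 9.52 (SD, n = 3). By interval, 429 Sox2-form sites (23.6%) had Oct4 in all 4 libraries of Sox2 forms and in none of the 3 of Sox17 forms, against 3.11% of all sites. Because the sites were chosen with these results known, no p-value is given for the contrast.

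The scores of the Oct4 peaks followed those of the Sox protein of the same line. Across Sox2-form sites, rho between a Sox library and an Oct4 library of its own line was 0.31 to 0.64 over 8 pairs of libraries (median 0.51, 1029 to 1605 sites a pair). Between a Sox library and an Oct4 library of the other Sox2-form line it was -0.11 to 0.22 (median 0.09, 8 pairs). At the 658 sites of all 8 Sox libraries the own-line values were 0.56 to 0.76 and the other-line values 0.26 to 0.46. Own-line pairs share the line and the tagged protein, and the part of the V5 antibody in these correlations was not tested.

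Sites with a strongest peak of 1 Sox2 form only differed in their Oct4 peaks. This split uses the 5836 strongest peaks of each Sox list, the same number in every list, and these Sox ranks were also used by the rule, so only the Oct4 shares are read. At the 441 sites with such a peak of Sox2 only, Oct4 lay at 89.6% and 73.5% in the Sox2 line (A and B) and at 80.0% and 53.7% in the Sox2KE line. At the 606 sites with such a peak of Sox2KE only, the shares were 82.3% and 32.8% in the Sox2 line and 89.9% and 79.2% in the Sox2KE line. The mean of the Sox2KE line minus that of the Sox2 line was -14.6 points at the first set and 27.0 points at the second. In both lines library B differed more between the sets than library A. At the 767 sites with strongest peaks of both, the Oct4 shares were 87.0%, 66.0%, 92.2% and 83.8% in the 4 libraries.

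Counted site by site, 390 Sox2-form sites (21.5%, exact 95% interval 19.6 to 23.5) had an Oct4 peak in all 4 libraries of the Sox2 and Sox2KE lines and in none of the 3 libraries of the Sox17EK and Sox17 lines. Among all ES Sox sites 2.45% had this pattern, 582 in number, and 67.0% of those 582 were Sox2-form sites. The opposite pattern, Oct4 in the 3 libraries of Sox17 forms and in none of the 4 of Sox2 forms, was found at 0 Sox2-form sites (upper limit of the exact interval 0.203%) and at 0.555% of all sites. The choice of sites by Sox peaks of the same lines favours this direction in advance. Oct4 in all 7 libraries, the pattern of a site that every line shares, was found at 94 Sox2-form sites (5.18%, interval 4.21 to 6.30) against 13.6% of all sites. No library of the Sox17EK and Sox17 lines had Oct4 at 1168 Sox2-form sites (64.4%), against 32% of all sites.

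**Figure D2:**
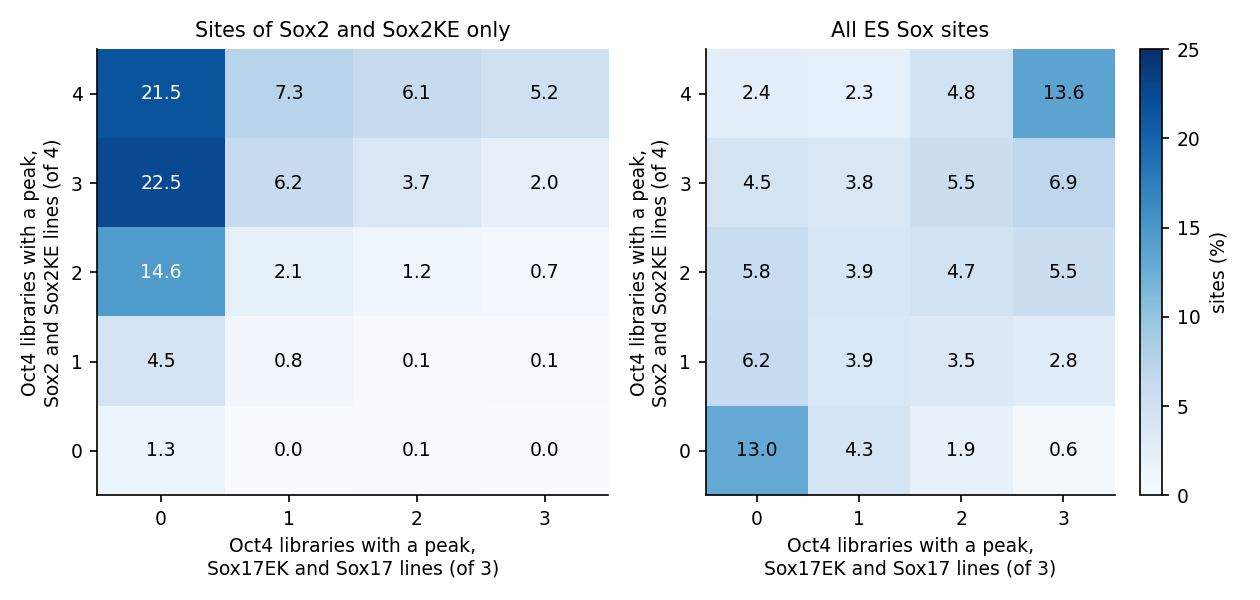
Share of sites (%, colour and printed number) by the number of Oct4 libraries with a peak, in the Sox2 and Sox2KE lines (y axis, of 4) and in the Sox17EK and Sox17 lines (x axis, of 3). The left panel shows the 1814 Sox2-form sites, which gather in the left column with 21.5% at the top. The right panel shows all 23799 ES Sox sites, whose largest shares are 13.6% in all 7 libraries and 13% in none.

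Only 24 Sox2-form sites (1.32%, interval 0.849 to 1.96) had no Oct4 midpoint in any of the 7 ES libraries, against 13% of all sites. Most of these were a matter of midpoints. At 18 of the 24 sites the interval of at least 1 Oct4 peak came within 200 bp, which left 6 sites (0.331%) with no Oct4 interval, against 5.61% of all sites. The strongest of the 24, on chromosome 9 at 54703254 to 54705908, had Sox2 scores of 964 and 688 and Sox2KE scores of 1340 and 2179. An Oct4 peak with a score of 1728 in the Sox2 line (A) and one of 836 in the Sox2KE line (A) overlapped its span without a matching midpoint. So did Oct4 peaks of 544 and 221 in the Sox17EK line, 124 in the Sox17 line, 313 in F9 and 476 in F9+RA cells, Sox17EK peaks of 76.7 and 103, and a Sox17 peak of 172 in F9+RA cells. The second, on chromosome 12 at 80907979 to 80909513, had Sox scores of 412, 417, 805 and 1530 in the same order and overlapping Oct4 peaks of 1921 and 935 in those libraries. Oct4 peaks of 912 and 319 in the Sox17EK line, 107 in the Sox17 line, 178 in F9 and 75.7 in F9+RA cells also overlapped it, as did a Sox17EK peak of 62.8. Counted by overlap with the span, both sites thus had an Oct4 peak in every ES line.

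The strongest Sox2-form sites are given next, one by one. First by mean rank was a region on chromosome 2 at 58141439 to 58143026, the span of its 4 Sox peaks. Its scores were 1602 and 816 for Sox2 (A and B) and 1702 and 3100 for Sox2KE. The Oct4 scores there were 2025 and 281 in the Sox2 line and 1425 and 353 in the Sox2KE line. No peak of Sox17EK or Sox17, of Oct4 in their lines, or of F9 cells overlapped this region.

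A second region, on chromosome 14 at 24411369 to 24412967, had Sox2 scores of 1230 and 824 and Sox2KE scores of 2346 and 3100. Oct4 scored 1423 and 317 in the Sox2 line and 1695 and 901 in the Sox2KE line. A Sox17EK peak (library B, score 73.1) overlapped its span, with its midpoint beyond 200 bp, and no Oct4 peak of the Sox17-form lines did. The third, on chromosome 14 at 73675432 to 73676407, had Sox scores of 1322, 975, 1771 and 2314 in the same order. Its Oct4 scores were 1361 and 324 in the Sox2 line and 920 and 288 in the Sox2KE line, with no overlapping peak in any other library.

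Not all of the strongest sites were free of Sox17 forms when peaks overlapping their spans were read. The fourth, on chromosome 8 at 37210604 to 37212872, had an Oct4 score of 541 in library A of the Sox17EK line, and of 3041 in library A of the Sox2 line. Sox17EK peaks of 68.7 and 121 overlapped its span, as did Oct4 peaks of 72.5 in library B of the Sox17EK line, 50.7 in the Sox17 line and 201 in F9+RA cells. The fifth, on chromosome 9 at 111627254 to 111628810, was overlapped by Sox17EK peaks of 312 and 135 and by Sox17 peaks of 167 and 71.6, each with its midpoint beyond 200 bp. Oct4 peaks of 481 and 150 in the Sox17EK line, 205 in the Sox17 line and 101 in F9 cells overlapped it in the same way. Its own Sox scores were 1412, 754, 1429 and 2434. Of the 10 strongest sites, 4 had such an overlapping Sox17-form peak, and 8 had no matching Oct4 peak in any library of the Sox17-form lines. Counting also peaks that overlapped the span, 6 of the 10 had no Oct4 peak of those lines. Overlap with a span is not the same reading as an interval within 200 bp of the site. These counts are therefore not set beside the interval shares above.

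Further strong sites had high Sox scores with Oct4 in the lines of Sox2 forms. On chromosome 17 at 7450977 to 7452268, Sox2 scored 1139 and 1060 and Sox2KE 1278 and 2070, and Oct4 scored 2293 and 641 in the Sox2 line, 607 and 466 in the Sox2KE line and 87.1 in library A of the Sox17EK line. On chromosome 10 at 75141349 to 75142913 Sox2 scored 838 and 1170 and Sox2KE 1057 and 3201, with Oct4 scores of 2487, 693, 1389 and 561 in the 4 libraries of their lines. A Sox17EK peak of 50.8 (library B) and an Oct4 peak of 67.8 in library A of the Sox17EK line overlapped that span. The region on chromosome 13 at 49276776 to 49277766 was the 1 site among the 10 with matching F9 peaks, with Oct4 scores of 66.0 in F9 and 54.5 in F9+RA cells, below those lists' medians of 119 and 94.6. Its Oct4 scores were 554 in library B of the Sox2 line and 1061 and 741 in the Sox2KE line, and an Oct4 peak of 1678 in library A of the Sox2 line overlapped it without a matching midpoint. Genes near these regions are not named, because the gene positions at hand are of another build.

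**Figure D3:**
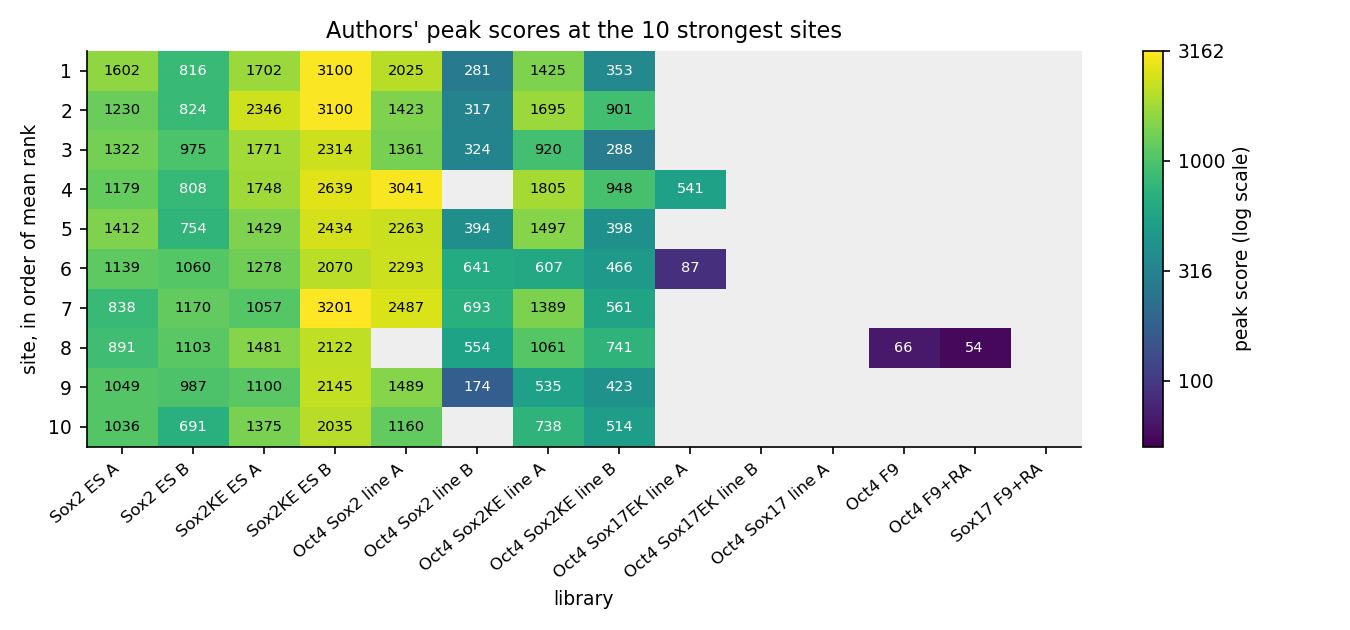
Authors' peak scores (colour on a log scale, printed number) at the 10 Sox2-form sites of lowest mean rank (y axis) in 14 libraries (x axis). Grey cells have no midpoint within 200 bp, though an interval may overlap; scores fill the 4 Sox and most of the 4 Oct4 columns of the Sox2 and Sox2KE lines, and the columns of the Sox17-form lines and F9 cells hold 4 values in all.

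Compared with the other sites that all 4 Sox2 and Sox2KE libraries held, the Sox2-form sites had lower Oct4 shares in the Sox17-form lines, and differed from them less in most libraries of the Sox2-form lines. In library A of the Sox2KE line Oct4 lay at 88.5% of the Sox2-form sites, at 90.1% of those with a Sox17EK peak only, at 88.0% of those with a Sox17 peak only and at 93.0% of those with peaks of both Sox17 forms. Library B of that line gave 75.0%, 79.1%, 75.7% and 87.3% for the same classes in that order, so there the sites with peaks of both stood above the Sox2-form sites. Library A of the Sox2 line gave 86.1%, 82.0%, 81.1% and 81.2%, and library B 56.7%, 84.8%, 64.1% and 89.4%. In the Sox17EK line the shares were 30.2%, 80.4%, 62.2% and 81.7% in library A and 18.1%, 77.5%, 44.4% and 85.4% in library B.

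The Sox17 line set the classes apart even where Sox17 itself had no peak. Its Oct4 library met 14.4% of the Sox2-form sites (interval 12.9 to 16.1) and 66.8% of the 1601 sites with a Sox17EK and no Sox17 peak (64.4 to 69.1). Neither class held a Sox17 peak, but the 1601 sites were chosen for a Sox17EK peak. The Sox17 lists were the shortest, and weaker Sox17 binding at the sites of either class was not tested. With a Sox17 and no Sox17EK peak the share was 64.9% (58.7 to 70.7), and with both it was 89.0% (87.5 to 90.4). These are intervals over sites of 1 library and no test of the conditions.

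**Figure D4:**
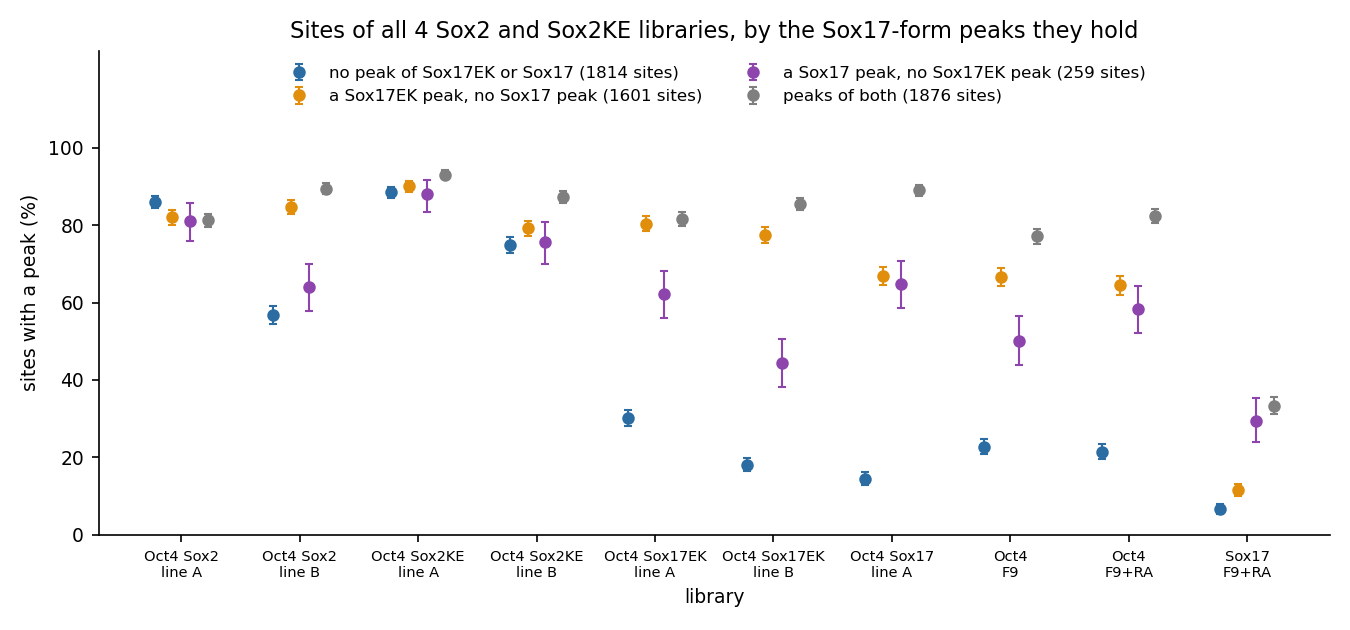
Share of sites (%, y axis) with a peak in each Oct4 or F9 library (x axis), for the 5550 sites held by all 4 Sox2 and Sox2KE libraries, split by the Sox17-form peaks they also hold; points are shares and bars exact 95% intervals. The Sox2-form sites (blue) lie above the other classes in library A of the Sox2 line, within or near their range in the Sox2KE line (75.0% to 87.3% in library B) and below all of them in the remaining libraries, for example at 14.4% in the Sox17 line.

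In F9 cells the Sox2-form sites again had the lowest Oct4 share of these classes. Oct4 of untreated F9 cells, which took no part in the choice of sites, lay at 412 Sox2-form sites (22.7%, exact 95% interval 20.8 to 24.7), against 44.5% of all ES Sox sites. The share was 66.6% at sites with a Sox17EK peak besides (64.2 to 68.9), 50.2% with a Sox17 peak besides (43.9 to 56.4) and 77.1% with both (75.2 to 79.0). The moved sites gave 1.96%. Where an F9 Oct4 peak was present it was weaker than elsewhere, with a median score of 133 at Sox2-form sites and 305 at the other ES Sox sites of that list. In rank this is 45.6% against 19.8% of the way down the list.

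With the F9 lists shortened to the length of the shortest of them, the Oct4 shares at Sox2-form sites were 14.9% in F9 and 12.4% in F9+RA cells. The shares over all ES Sox sites were not computed at that length, and the values that follow are of the full lists. In F9+RA cells Oct4 lay at 389 Sox2-form sites (21.4%, 19.6 to 23.4), against 47% of all sites. The 2 F9 lists together left 1247 Sox2-form sites (68.7%, 66.6 to 70.9) without Oct4, against 41.5% of all sites. Both lists had Oct4 at 234 (12.9%, against 32.9% of all sites), F9 alone at 178 (9.81%, against 11.5%) and F9+RA alone at 155 (8.54%, against 14.1%).

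The F9 Oct4 share was low at every strength of Sox2 peak. By mean position in the 2 Sox2 lists, the top 10% held 254 Sox2-form sites, of which 25.6% had an F9 Oct4 peak (20.3 to 31.4), against 67.8% of the 1951 other sites held by both Sox2 libraries in that range (65.7 to 69.9). From 10% to 20% of the list the shares were 23.5% and 62.7%, from 20% to 40% they were 23.2% and 60.8%, and in the rest 19.7% and 62.5%. The Sox17 line behaved alike, with 15.4% against 76.7% in the strongest range and 10.8% against 68.7% in the weakest. Library B of the Sox2 line differed from these. Its shares of 86.2% and 90.5% in the strongest range had overlapping intervals, and they parted to 28.8% and 70.0% in the weakest. The other libraries of the Sox2-form lines did not show this fall. In the weakest range library A of the Sox2 line gave 80.3% and 74.9%. The Sox2KE line gave 88.7% and 62.1% in library A and 75.3% and 46.8% in library B there.

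**Figure D5:**
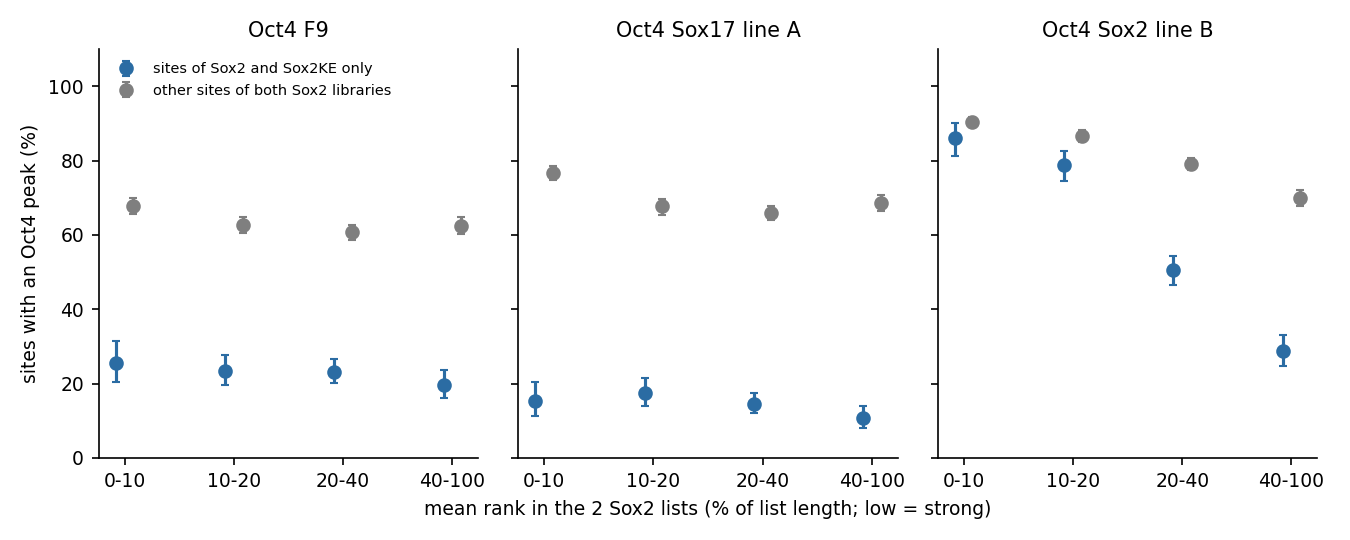
Share of sites (%, y axis) with an Oct4 peak in F9 cells, in the Sox17 line and in library B of the Sox2 line, by the mean rank of the site in the 2 Sox2 lists (x axis, % of list length, low values strong). Blue points are Sox2-form sites and grey points the other sites held by both Sox2 libraries, with exact 95% intervals. In the left and middle panels the blue points stay between 10.8% and 25.6% at every rank. In the right panel they fall from 86.2% to 28.8%. Other libraries of the Sox2-form lines, which did not fall in this way, are not drawn.

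The Sox2-form sites that carried Oct4 in F9 cells had Oct4 in the Sox17-form lines more often than the others, though the sets were not the same. At the 412 sites with an F9 Oct4 peak, the Oct4 shares were 66.3% and 44.9% for the Sox17EK line and 39.1% for the Sox17 line. At the 1402 sites without one the shares were 19.6%, 10.3% and 7.20%. Of the 548 sites with Oct4 in library A of the Sox17EK line, 273 had an F9 Oct4 peak and 275 had none, and of the 262 of the Sox17 line 161 had one and 101 had none. The means were 50.1% ± 14.3 and 12.4% ± 6.46 (SD, n = 3). In the lines of Sox2 forms the same split gave 85.9% ± 6.66 and 73.8% ± 16.8 (SD, n = 4). The split was not made over all ES Sox sites, so it is not shown to be particular to Sox2-form sites.

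Oct4 peaks at Sox2-form sites were also weaker than at other Sox sites within each list. In library A of the Sox2KE line their median score was 272 against 315, and in library A of the Sox2 line 338 against 566. In the lines of Sox17 forms the medians were 139 against 627 for Sox17EK library A and 95.6 against 216 in the Sox17 line. Among the 5836 strongest Oct4 peaks of a list, those at Sox2-form sites numbered 255 and 167 in the Sox2 line and 365 and 148 in the Sox2KE line. They numbered 14 and 16 in the Sox17EK line, 10 in the Sox17 line and 28 in F9 cells. The same count over all ES Sox sites was not made, so none of these numbers is read as high or low.

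Endogenous Sox17 of F9+RA cells met few of these sites. A peak lay at 120 of them (6.62%, interval 5.51 to 7.86), against 18% of all ES Sox sites and 1.16% at moved positions. Among sites of all 4 Sox2 and Sox2KE libraries the share was 11.6% (10.0 to 13.2) with a Sox17EK peak only, 29.3% (23.9 to 35.3) with a Sox17 peak only and 33.3% (31.2 to 35.5) with both. Sites of Sox2KE alone, with no Sox17-form peak, had 14.4% (11.8 to 17.3). Lower shares lay at sites of Sox2 alone, with 2.40% (0.886 to 5.15), and of Sox2 and Sox17EK only, with 3.14% (2.13 to 4.45). A low share was thus not particular to the Sox2-form sites. The rule for Sox2-form sites removed sites of induced Sox17, so a low share of endogenous Sox17 is no independent sign. Of the 120 sites, 83 also had Oct4 in F9+RA cells, 4.58% of the Sox2-form sites against 12.9% of all sites.

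The 83 sites with both Oct4 and Sox17 in F9+RA cells covered a wide range of Sox strength in ES cells. Their median Sox2 scores were 162 and 145, against 220 and 167 at the other 1731 Sox2-form sites of the same lists, and their median Sox2KE scores 321 and 716, against 302 and 616. The highest reached 433 and 398 for Sox2 and 2071 and 3100 for Sox2KE. First by mean rank over the 4 lists was a site on chromosome 7 at 130469438 to 130470370, with Sox2 scores of 333 and 277 and Sox2KE scores of 533 and 1524. Its F9+RA scores were 345 for Oct4 and 253 for Sox17, with no matching Oct4 peak in untreated F9 cells or in a Sox17-form line. The next, on chromosome 6 at 46810679 to 46811980, had Sox scores of 391, 222, 465 and 1604, Oct4 scores of 1957 and 1318 in libraries A of the Sox2 and Sox2KE lines, and F9+RA scores of 74.3 for Oct4 and 50.3 for Sox17. On chromosome 8 at 40094082 to 40095118, Oct4 scored 539 in F9+RA and 64.7 in untreated F9 cells, beside Sox2KE scores of 754 and 1324.

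Sites of either Sox2 form alone were set beside the Sox2-form sites. The 673 sites of Sox2KE alone had Oct4 at 75.8% and 58.2% in the Sox2KE line but at 31.9% and 12.3% in the Sox2 line. The 250 sites of Sox2 alone had it at 78.0% and 70.4% in the Sox2 line and at 20% and 11.2% in the Sox2KE line. Their F9 Oct4 shares were 15.8% (13.1 to 18.7) and 22.4% (17.4 to 28.1). The share at sites of Sox2KE alone lay below the 22.7% of the Sox2-form sites (20.8 to 24.7), and that of Sox2 alone was near it. The 956 sites of the lysine proteins only, Sox2 and Sox17EK, had 74.8% (71.9 to 77.5). A low F9 Oct4 share was thus measured in all 3 of these classes without Sox17-form peaks.

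The sites were spread over all 20 chromosomes that held ES Sox sites, unevenly. Chromosome 8 had 96 Sox2-form sites among 1958 ES Sox sites, 4.90% of them (exact 95% interval 3.99 to 5.95), and chromosome 17 had 5.44% (4.12 to 7.04), against 7.62% overall. The highest shares were 11.6% on chromosome 18 (9.37 to 14.3), 11.3% on chromosome X (7.74 to 15.7), 11.0% on chromosome 16 (8.69 to 13.6) and 10.7% on chromosome 12 (8.73 to 12.9). The libraries themselves differed here. Chromosome 8 held 6.91% and 7.13% of the strongest Sox2 peaks, 7.69% and 8.36% of those of Sox2KE, 6.49% and 6.32% of those of Sox17EK and 9.44% and 9.42% of those of Sox17, and the part of such line differences in the spread of the sites was not tested.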

How the data were processed

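The deposited files hold 1 peak list per library, called by the authors with MACS per the prefix of the peak names in the files. Their build is mm9, as the submitters' processing notes say. Not given in the sources used here are the aligner, the caller's settings and version, and its control. Column 5 of the deposited lists, the authors' score per peak, was read as 10 times −log10 p from its values, an inference that no label states. Starts and ends (other units, bp) were taken to count from 0 and are printed counting from 1. The 2 mock libraries were not analysed here.

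Sites, matching (midpoints within 200 bp) and classes followed the rule given above, and a peak at a site means a midpoint match unless an interval is named. At a named site, an overlapping peak shares at least 1 bp with the span of the 4 Sox peaks. The matching was tested on simulated lists. Positions moved by 10 kb to either side gave the background. Shares have exact 95% intervals (Clopper-Pearson), which cover counting error only, and group values are means ± SD over libraries. No p-value was computed. The members, classes and site lists were chosen with earlier results of these data known. Named sites are the 10 of lowest mean rank over the 4 Sox2 and Sox2KE lists, and up to 5 each of those with Oct4 in the Sox2-form lines only, with no ES Oct4 midpoint, and with Oct4 and Sox17 in F9+RA cells. The splits by Sox17-form peaks, by F9 Oct4, by Sox2 rank and by the protein with a strongest peak, and the interval readings, were added after the data were seen. The gene and promoter tables used here are of build GRCm38, so the planned gene lists and motif counts were not run and no sequence is printed. Python 3.11.15, NumPy 2.4.6, pandas 2.3.3, SciPy 1.17.1 and Matplotlib 3.10.9 were used.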

Additional observations from a re-analysis of the deposited data

How the results depend on the processing

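The mean Oct4 share in the lines of Sox2 forms was 65.5% to 87.4% under the 24 alternatives run. It stayed within 14.5 points of the reported value, the SD over its 4 libraries. Its difference from the lines of Sox17 forms lay between 45.4 and 66.6 points under 24 alternatives. That stayed within 11.8 points of the reported value, the pooled SD over libraries of both groups. Other values moved with the rule. The number of sites was 1185 with midpoints within 100 bp, 508 where only the strongest Sox peaks counted as bound and 295 from the 1000 strongest peaks of each list, and 1682 to 2437 when each Sox library was left out in turn. The mean of the Sox17-form lines was 36.2% where bound meant a strongest peak and 12.2% at equal list lengths, and 16.3% to 33.1% when each library was left out. The F9 Oct4, F9+RA Oct4 and F9+RA Sox17 shares were 18.1%, 16.6% and 4.64% within 100 bp, 27.6%, 27.0% and 9.10% within 400 bp, and 30.4%, 28.4% and 9.49% with interval overlap throughout. They were 18.3%, 17.6% and 5.42% from the 1000 strongest peaks, and 25.2%, 24.9% and 8.57% without both Sox17 libraries, an alternative added after the data were seen. Reading these lists by interval at the same sites, also added then, gave 28.4%, 27.3% and 8.82%. The F9 and F9+RA Oct4 shares were 33.7% and 31.5% with only the strongest peaks bound and 14.9% and 12.4% at equal list lengths. Leaving out each Sox library gave 20% to 32.2%, 19.9% to 30.1% and 6.36% to 8.21% for the 3 shares, the highest values coming without Sox17EK library A. For equal lengths, the ES Oct4 lists and the F9 lists were each cut to the shortest of their group. The Sox lists of ES cells kept their lengths there. At equal lengths fewer peaks can match, and for the other settings the cause was not tested.

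Depth was unknown, so a missing peak does not show that a protein was absent, least of all in the short Sox17 lists. Replicates A and B come from 1 line per protein, and line, protein and antibody cannot be told apart. No paired analysis was possible because no result comes from a test and the letters A and B are not stated to mark a shared batch.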

Other observations

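Sox2-form sites lay near each other in places. Within 10 kb of another such site lay 88 of them (4.85%), and within 50 kb 301 (16.6%). Chained at 50 kb, 21 runs held 3 sites each and no run held more. The shortest run was on chromosome 18, with a span of 5266 bp. The second was on chromosome 12, with sites from 33868023 to 33882394, a span of 14371 bp, and the next was on chromosome 3, from 145667972 to 145690302. No background was computed for these shares or runs, so neither is read as clustering.

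The share of the strongest Sox peaks on chromosome X was 1.41% and 1.44% for Sox2, 0.840% and 0.480% for Sox2KE, 1.85% and 1.78% for Sox17EK and 0.514% and 0.531% for Sox17. The 2 libraries of a protein lay close together except for Sox2KE, whose library B was nearer to Sox17 than to its own library A. Of the 266 ES Sox sites on this chromosome, 30 were Sox2-form sites, 11.3% (exact 95% interval 7.74 to 15.7) against 7.62% over the genome.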
